A study of Rattus norvegicus with 16 samples.

Results

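The genes described here are the classical and accessory chains of the rat major histocompatibility complex (MHC) class II system that the array names: RT1-Ba, RT1-Bb, RT1-Da, RT1-Db1, RT1-DMa, the invariant chain Cd74 and the class II transactivator Ciita. They were found as the probe sets whose single gene symbol in the platform annotation was one of these names, which gave 7 genes of 14217 and 13 probe sets of 31042. The set was chosen by its expression values over the 4 groups of these same arrays, so those values over the groups are a description and carry no test.

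The arrays measured gene expression in soleus, a slow postural muscle of the hind limb, from 16 female rats of generation 16 of an artificial selection from N:NIH stock for treadmill running capacity, tested at 11 weeks of age. HCR rats came from the high capacity runner line and LCR rats from the low capacity runner line, and each line gave 4 sedentary and 4 trained rats, so there were 4 groups of 4 arrays. Trained rats ran uphill at 25 degrees in aerobic intervals on 5 days per week for 8 weeks, and sedentary rats were of the same age and did no training. Soleus was taken at about 7 months of age, 48 hours after the last session in trained rats, and 20 mg of tissue gave the RNA. Neither line is an unselected control, so a line difference sets 1 selected line against the other. The labels describe each array as a separate rat of its group.

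Class II molecules are pairs of an alpha and a beta chain that display peptides from endocytosed proteins to CD4+ T cells. The invariant chain binds new class II pairs and occupies their peptide groove until proteases degrade it, and the DM pair (RT1-DMa and RT1-DMb) then exchanges its last fragment for other peptides. Ciita is the coactivator that turns these genes on together, by binding factors that sit on the X and Y boxes of their promoters, and in muscle the genes are known mainly from macrophages and dendritic cells between the fibres rather than from the fibres.

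Because most of these genes moved together across the arrays, the promoter stretches that hold X box and Y box letters are shown first. The sequences are RefSeq promoters of build GRCr8, given 5′ to 3′ on each gene's own strand, and capitals mark the matched motifs. RefSeq promoter entries matched 6 of the 7 genes, all but Ciita.
RT1-Da, chr20:4515293-4515382, plus strand: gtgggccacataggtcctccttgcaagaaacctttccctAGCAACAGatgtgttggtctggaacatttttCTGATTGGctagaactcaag
RT1-Db1, chr20:4560226-4560315, minus strand: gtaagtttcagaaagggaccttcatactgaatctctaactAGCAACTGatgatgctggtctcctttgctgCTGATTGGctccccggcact
RT1-Ba, chr20:4576941-4577030, plus strand: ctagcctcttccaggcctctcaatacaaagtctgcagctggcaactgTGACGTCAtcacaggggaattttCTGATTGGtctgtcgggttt
RT1-Bb, chr20:4604163-4604252, minus strand: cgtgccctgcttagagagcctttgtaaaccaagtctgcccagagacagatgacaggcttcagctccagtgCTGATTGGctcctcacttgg
RT1-DMa, chr20:4712380-4712469, minus strand: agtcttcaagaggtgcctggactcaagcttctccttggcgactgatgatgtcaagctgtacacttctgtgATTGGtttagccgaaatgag
Cd74, chr18:56526956-56527036, plus strand: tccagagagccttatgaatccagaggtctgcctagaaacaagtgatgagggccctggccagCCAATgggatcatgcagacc

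The Y box CTGATTGG, searched on both strands from 250 bases before to 50 after the start, was present in 4 of the 6 promoters (RT1-Da, RT1-Db1, RT1-Ba and RT1-Bb), and 3.5% of 33469 rat promoters hold it. In those 4 genes it began 52, 83, 46 and 64 bases before the start, in that order of naming, and each time on the gene's own strand. Its core ATTGG, which every CTGATTGG also contains, was in all 6 promoters and in 37.5% of all promoters; in Cd74 it lay on the opposite strand, as CCAAT. The X1 letters AGCAACAG were found in RT1-Da only among the 6, against 2.06% of all promoters, and the looser AGNAACNG in RT1-Da, RT1-Db1 and RT1-Bb, against 17.4%. RT1-Bb's looser match lies outside the stretch shown. The X2 form TGACGTCA was found in RT1-Ba only among the 6, against 1.83%, and its contained TGACG likewise, against 21.2%. TGCGTCA was in none of the 6 windows and in 1.9% of all promoters. A match of letters is not evidence of binding.

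All levels below are log2 expression as deposited, and differences are on the same log2 scale. The labelled tissue was checked on slow muscle markers, of which Myh7, the slow myosin heavy chain, averaged 14.46 in sedentary HCR and 14.48 in trained LCR rats. Single arrays touch what follows. HCR sedentary 2 was the highest of the 16 arrays on 10 of the 13 member probe sets, with all 7 genes among them, whereas 13.3% of all probe sets were highest there. It was also highest on 17 of 20 macrophage markers. HCR trained 3 stood apart on slow muscle markers, whose mean lay at −1.61 from the 16-array mean against −0.04 to 0.18 on the other arrays.

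The invariant chain Cd74 was the best measured member, with a mean that ranked above 96.4% of probe sets. Cd74 read 10.62, 12.47, 10.34 and 11.32 in the 4 sedentary HCR rats and 10.28, 9.86, 9.80 and 9.86 in the trained HCR rats. In LCR rats Cd74 read 9.67, 10.75, 9.86 and 10.05 in sedentary and 10.39, 11.18, 10.62 and 10.03 in trained animals. Every sedentary HCR value lay above every trained HCR value, by a narrow margin, whereas the LCR groups overlapped and the sedentary groups of the 2 lines overlapped. Group means (± SD, n = 4) ran from 11.19 ± 0.95 in sedentary HCR through 10.55 ± 0.48 in trained LCR and 10.08 ± 0.47 in sedentary LCR to 9.95 ± 0.22 in trained HCR, and no step between neighbours exceeded the larger SD of the pair. Without HCR sedentary 2, the sedentary HCR mean was 10.76 ± 0.51 (SD, n = 3).

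**Figure D1:**
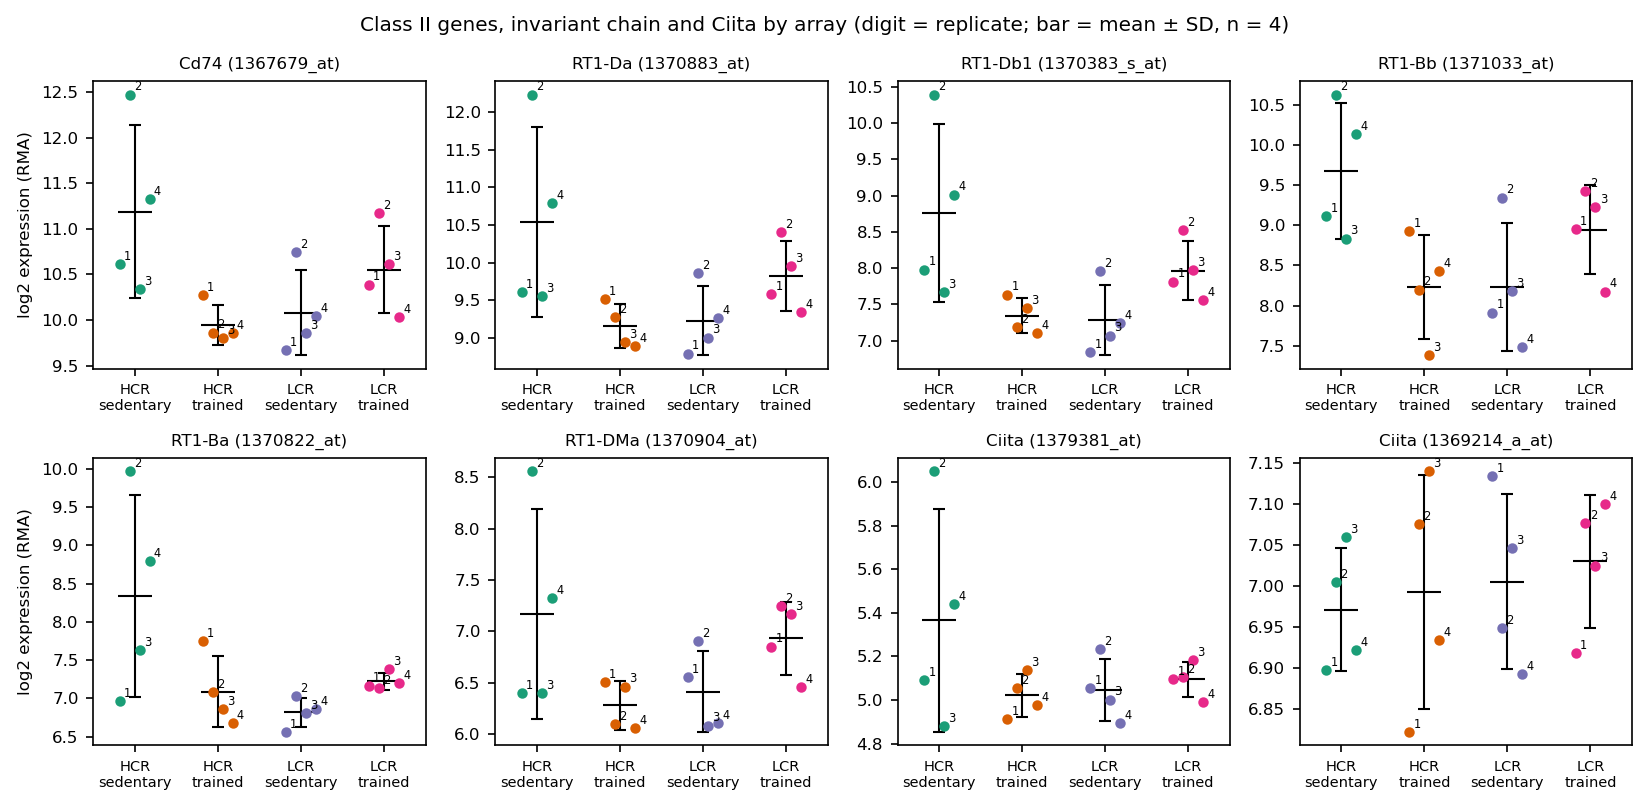
Log2 expression (RMA) of 8 member probe sets by group, with 1 point per array, its replicate number beside it, and bars for mean ± SD (n = 4). HCR sedentary 2 is the top point in every panel but the last, and on the Cd74 panel it reads 12.47 against 9.67 to 11.32 elsewhere.

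RT1-Da, the alpha chain of the classical D molecule (the counterpart of human DR), followed Cd74 closely. RT1-Da read 9.61, 12.23, 9.56 and 10.79 in sedentary HCR and 9.52, 9.28, 8.95 and 8.89 in trained HCR rats. The LCR values were 8.80, 9.87, 9.01 and 9.27 in sedentary and 9.58, 10.41, 9.96 and 9.35 in trained rats. As with Cd74, the HCR groups did not overlap and the LCR groups did. The order of group means was also that of Cd74, and only the step from trained LCR (9.82) to sedentary LCR (9.23) exceeded the larger SD of its pair, 0.46.

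RT1-Db1, the partner beta chain, was read by 2 probe sets from 1 source sequence. The brighter, 1370383_s_at, whose suffix marks probes shared by several transcripts, read 7.98, 10.39, 7.67 and 9.02 in sedentary HCR, 7.63, 7.19, 7.45 and 7.10 in trained HCR, 6.84, 7.96, 7.07 and 7.25 in sedentary LCR, and 7.81, 8.52, 7.97 and 7.56 in trained LCR rats. The HCR groups did not overlap on it. The dimmer, 1370382_at, ranged from 5.36 to 5.98 on 14 arrays and reached 7.39 on HCR sedentary 2 and 6.66 on HCR sedentary 4, the same rats that were highest on Cd74. Reads of the near-identical D beta genes cannot be separated on a shared probe set, so RT1-Db1 values are uncertain in that respect.

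RT1-Bb, the beta chain of the B molecule (the counterpart of human DQ), had 1 bright and 1 dim probe set. On 1371033_at it read 9.12, 10.62, 8.83 and 10.13 in sedentary HCR and 8.93, 8.20, 7.38 and 8.43 in trained HCR rats. In LCR rats RT1-Bb read 7.91, 9.34, 8.18 and 7.48 in sedentary and 8.96, 9.42, 9.23 and 8.18 in trained animals. The ranges of the groups overlapped in both lines, in HCR by a single value, since HCR trained 1 lay just above HCR sedentary 3. The other probe set, 1371065_at, averaged 5.01, under the 5.61 that was taken as the level of dim probe sets (the 40th percentile of probe set means), and only HCR sedentary 2 (5.65) read above that level.

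RT1-DMa, the alpha chain of the peptide exchange factor, read 6.40, 8.56, 6.40 and 7.33 in sedentary HCR and 6.50, 6.10, 6.46 and 6.06 in trained HCR rats. Its LCR values were 6.55, 6.91, 6.08 and 6.11 in sedentary and 6.85, 7.25, 7.17 and 6.46 in trained rats. Sedentary HCR rats 1 and 3 lay inside the range of the trained HCR rats, so the raised mean of that group rested on rats 2 and 4. The sedentary HCR mean of 7.17 ± 1.02 (SD, n = 4) became 6.71 ± 0.54 (SD, n = 3) without HCR sedentary 2, below the trained LCR mean of 6.93 ± 0.36 (SD, n = 4).

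Ciita, the transactivator, did not show this pattern on its brighter probe set. On 1369214_a_at all 16 values of Ciita lay between 6.82 and 7.14, and the 4 group means between 6.97 and 7.03. On 1379381_at Ciita read 5.09, 6.05, 4.88 and 5.44 in sedentary HCR rats and between 4.89 and 5.23 in the other 3 groups. This probe set averaged 5.13, also under the dim level, and only HCR sedentary 2 exceeded 5.61. Its highest and second highest arrays were again HCR sedentary 2 and 4.

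RT1-Ba, the alpha chain of the B molecule, gave different answers on its 4 probe sets. On 1370822_at it read 6.96, 9.97, 7.63 and 8.79 in sedentary HCR, 7.74, 7.09, 6.86 and 6.67 in trained HCR, 6.56, 7.03, 6.81 and 6.86 in sedentary LCR, and 7.17, 7.13, 7.39 and 7.20 in trained LCR rats. Here HCR sedentary 2 and 4 were the highest arrays, as for the other chains, and every trained LCR value lay above every sedentary LCR value, by a narrow margin. On 1377334_at RT1-Ba reached 10.73 on HCR sedentary 2 and stayed between 5.60 and 7.89 on the other 15 arrays.

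The remaining 2 RT1-Ba probe sets, 1381593_x_at and 1392334_at, come from 1 source sequence and followed each other (Pearson's r = 0.996 over 16 arrays). The suffix of 1381593_x_at marks probes that may also bind other sequences. On 1392334_at RT1-Ba read 8.26, 8.25, 8.38 and 8.44 in sedentary HCR and 8.11, 8.44, 8.55 and 8.19 in trained HCR rats. The LCR values were 9.73, 8.02, 9.70 and 8.18 in sedentary and 9.90, 10.87, 10.07 and 10.30 in trained rats. On this probe set all 8 HCR rats were low, all 4 trained LCR rats were high, and the sedentary LCR rats were split, with rats 1 and 3 just below the trained LCR values and rats 2 and 4 within or just below the range of the HCR rats. The same split appeared on 1381593_x_at, where sedentary LCR rats read 9.57, 7.52, 9.56 and 7.83. On 1377334_at the same rats were split the other way, at 6.42, 7.51, 6.43 and 7.89, and the trained LCR rats were low (5.60 to 6.67). Over the 15 arrays without HCR sedentary 2, 1377334_at had r = −0.75 with 1381593_x_at and −0.73 with 1392334_at, given as a description. The sequences of the probes were not used here. HCR sedentary 2, the highest array on most members, read 8.04 on 1381593_x_at and 8.25 on 1392334_at and did not stand apart from the other HCR rats on these.

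**Figure D2:**
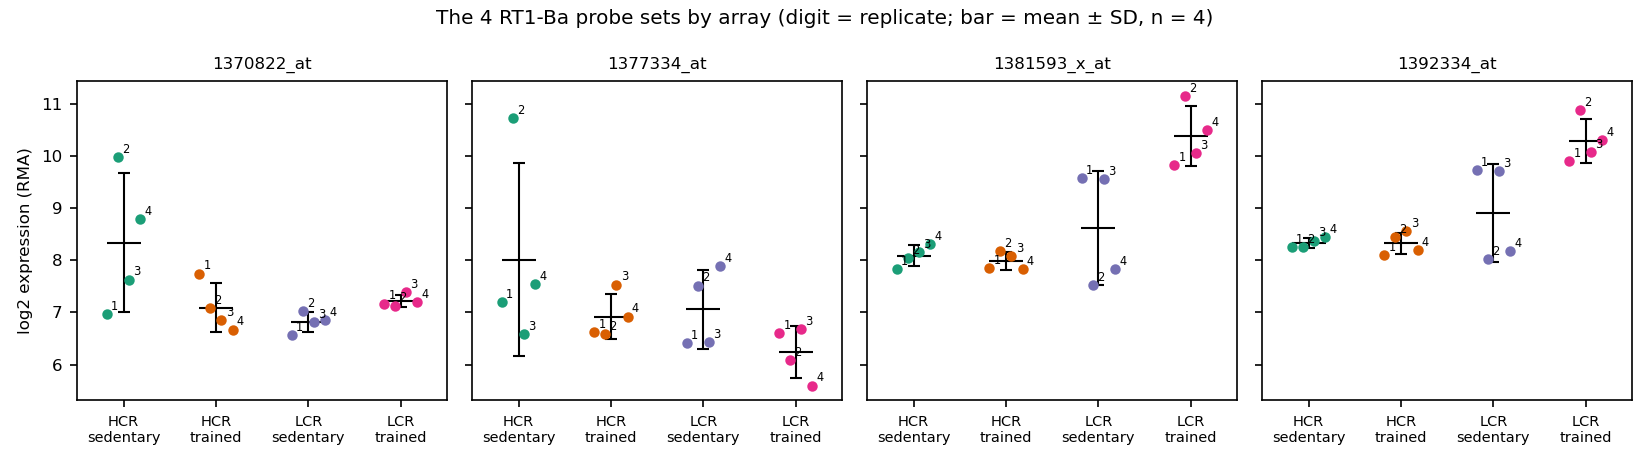
Log2 expression (RMA) of the 4 RT1-Ba probe sets by group, with 1 point per array, its replicate number beside it, and bars for mean ± SD (n = 4). On the left pair HCR sedentary 2 is the top point (9.97 and 10.73), and on the right pair the trained LCR rats (9.82 to 11.15 and 9.90 to 10.87) lie above all HCR rats.

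Correlation with Cd74 over the 16 arrays, given as a description, divided the probe sets in the same way. Pearson's r with Cd74 was 0.988 for RT1-Da, 0.985 for the brighter RT1-Db1 probe set, 0.926 for RT1-DMa, 0.912 for the brighter RT1-Bb probe set and 0.861 for RT1-Ba 1370822_at. Without HCR sedentary 2 these were 0.975, 0.967, 0.83, 0.898 and 0.667, so RT1-Da, RT1-Db1 and RT1-Bb followed Cd74 in the other 15 rats nearly as closely. RT1-Ba 1381593_x_at and 1392334_at had r = −0.03 and −0.08 with Cd74, and the brighter Ciita probe set, 1369214_a_at, had r = −0.22. The dim Ciita probe set, 1379381_at, had r = 0.852, and 0.625 without HCR sedentary 2, and the dimmer RT1-Db1 probe set, 1370382_at, had 0.790 and 0.480. For a pair of others the likeness to Cd74 rested on that single rat, since r fell from 0.68 to 0.14 for RT1-Ba 1377334_at and from 0.68 to 0.03 for RT1-Bb 1371065_at when it was left out.

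Between sedentary rats of the lines, 10 of the 13 member probe sets had a higher mean in HCR, with a median difference (HCR minus LCR) of 0.87 against 0.01 over all probe sets. The difference was 1.11 ± 0.38 (SE) for Cd74, or 2.16-fold, 1.31 ± 0.47 for RT1-Da, 1.48 ± 0.45 for RT1-Db1 1370383_s_at, 1.45 ± 0.46 for RT1-Bb 1371033_at and 1.52 ± 0.46 for RT1-Ba 1370822_at. Without HCR sedentary 2 these became 0.68, 0.75, 0.94, 1.13 and 0.98, and the median over the 13 probe sets fell to 0.30. The other RT1-Ba probe sets did not share the difference of 1370822_at. RT1-Ba differed by −0.53 ± 0.41 on 1381593_x_at and −0.57 ± 0.34 on 1392334_at. On 1377334_at it differed by 0.95 ± 0.67, and by 0.05 without HCR sedentary 2. The third probe set with a lower mean in HCR was Ciita 1369214_a_at (−0.03). No member probe set passed an adjusted p of 0.05 in the limma fit over all probe sets, where 0.00966% of probe sets passed. The sedentary groups overlapped on all 13 member probe sets, and 4.87% of all probe sets did not overlap.

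Within HCR, the training comparison used the same sedentary arrays and turned on the same rats. The mean was lower after training on 12 of 13 probe sets, with a median difference (trained minus sedentary) of −0.89 against 0.00 over all probe sets. Cd74 differed by −1.24 ± 0.38 (SE), which put sedentary rats 2.36-fold above trained ones, and RT1-Da by −1.39 ± 0.47. RT1-Db1 1370383_s_at differed by −1.42 ± 0.45, RT1-Bb 1371033_at by −1.44 ± 0.46 and RT1-DMa by −0.89 ± 0.38. Without HCR sedentary 2 these were −0.81, −0.82, −0.88, −1.13 and −0.43, and the median was −0.29. The groups did not overlap on Cd74, RT1-Da and RT1-Db1 1370383_s_at, 3 of 13, where 2.67% of all probe sets lay wholly lower after training. None of the 13 passed the threshold, which 0.187% of all probe sets passed.

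Within LCR, 12 of 13 probe sets had a higher mean after training, and the median difference (trained minus sedentary) was 0.47 against −0.02 over all probe sets. Cd74 differed by 0.47 ± 0.38 (SE), RT1-Da by 0.59 ± 0.47 and RT1-Bb 1371033_at by 0.72 ± 0.46, each with overlapping groups. Cd74 differed by 0.27 without LCR trained 2, and RT1-Bb by 0.47 without LCR sedentary 4 and 1.09 without LCR sedentary 2. RT1-Ba differed most, by 1.76 ± 0.41 on 1381593_x_at and 1.38 ± 0.34 on 1392334_at, where the groups did not overlap but the sedentary rats were split as described. Another RT1-Ba probe set, 1377334_at, differed by −0.82 ± 0.67, the 1 member probe set with a lower mean after training. RT1-Ba 1370822_at also did not overlap, which made 3 of 13, against 2.9% of all probe sets wholly higher after training. None of the 13 passed the threshold, and 0.00322% of all probe sets did.

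**Figure D3:**
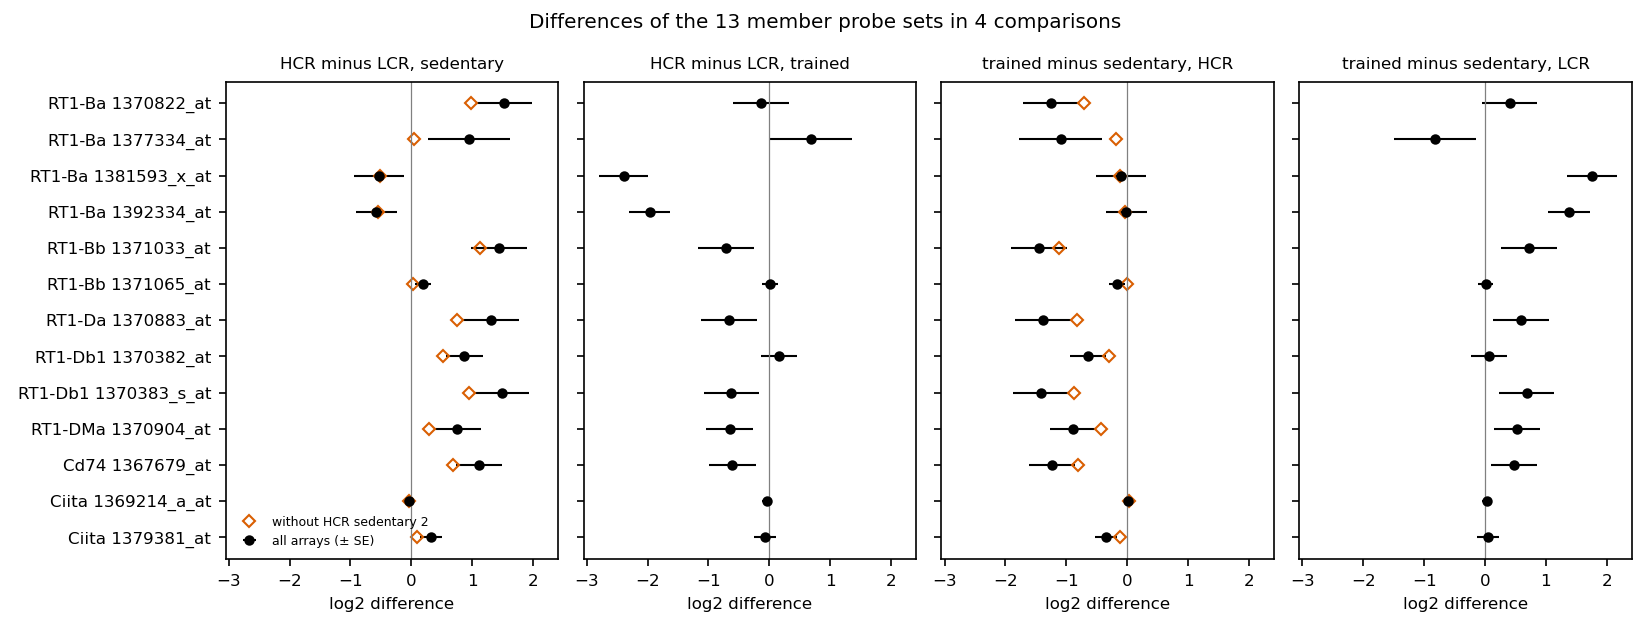
Log2 differences (± SE) of the 13 member probe sets in 4 comparisons, with all 16 arrays (filled) and, where that array enters, without HCR sedentary 2 (open). For Cd74 the sedentary line difference moves from 1.11 to 0.68 and the HCR training difference from −1.24 to −0.81, while the RT1-Ba probe sets 1381593_x_at and 1392334_at lie at −2.39 and −1.96 between trained lines.

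Between trained rats the sign was turned, with 10 of 13 probe sets lower in HCR and a median difference (HCR minus LCR) of −0.60 against 0.04 over all probe sets. Cd74 differed by −0.60 ± 0.38 (SE), RT1-Da by −0.66 ± 0.47 and RT1-DMa by −0.65 ± 0.38, with overlapping groups. RT1-Ba 1381593_x_at and 1392334_at differed by −2.39 ± 0.41 and −1.96 ± 0.34, so LCR rats were 5.26-fold and 3.90-fold higher. These were the 2 member probe sets that passed the threshold, which 0.374% of all probe sets passed, and the 2 whose groups did not overlap, against 6% of all probe sets wholly lower in HCR. Both lost the call when any 1 of the 4 trained LCR arrays or HCR trained 2 or 4 was left out; the difference then stayed between −2.58 and −2.14 for 1381593_x_at and between −2.09 and −1.77 for 1392334_at. Both also lost it with replicate number as a block, at the same differences of −2.39 and −1.96, and with the beta-actin index described below as a covariate, at −2.44 and −2.02.

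The training difference in HCR minus that in LCR was below 0 on all 13 probe sets, with a median of −1.41 against 0.04 over all probe sets. It was −1.71 ± 0.54 (SE) for Cd74, −1.97 ± 0.66 for RT1-Da, −2.16 ± 0.65 for RT1-Bb 1371033_at and −2.11 ± 0.64 for RT1-Db1 1370383_s_at. These became −1.28, −1.41, −1.84 and −1.56 without HCR sedentary 2. The sign was not shared by all 13 probe sets once that array was left out. RT1-Ba 1377334_at then moved from −0.27 to 0.63, and Ciita 1369214_a_at from −0.0025 to 0.009. With the beta-actin index described below as a covariate, RT1-Ba 1377334_at stood at 1.79. No probe set of the array passed the threshold for this contrast (0%), although 5673 had an unadjusted p under 0.05 in the same limma fit. Averaged over training states, the member median was 0.25 between lines, and averaged over lines it was −0.29 between training states, and without HCR sedentary 2 these were 0.04 and −0.10. Again no member was past the threshold, which 0.087% and 0.00644% of all probe sets passed. The median between lines hides a difference of the opposite sign. Averaged over training states, RT1-Ba 1381593_x_at and 1392334_at differed by −1.46 ± 0.29 (SE) and −1.27 ± 0.24 (HCR minus LCR).

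The beta-actin control probe sets, whose 3′ signal minus middle signal rises as RNA is shortened, gave an index that moved opposite to Cd74. This index was 1.18 ± 0.54 (SD, n = 4) in sedentary HCR, 1.90 ± 0.35 in trained HCR, 1.65 ± 0.32 in sedentary LCR and 1.27 ± 0.14 in trained LCR rats. This reversed the order of the Cd74 means, but only with HCR sedentary 2, which read 0.38 while the other sedentary HCR arrays read 1.43, 1.32 and 1.59, each at or above the trained LCR mean. With the index as a covariate, Cd74 differed by 0.65 between sedentary lines, by 0.01 between trained lines, by −0.54 with training in HCR and by 0.11 with training in LCR rats. The part of this index in the member differences was not tested.

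Markers of other cells that carry class II molecules were read on the same arrays. Macrophage and general leukocyte markers, 20 of 20 measured, had a higher mean in sedentary HCR than in sedentary LCR (20 of 20), a lower mean after training in HCR (20 of 20), a higher mean after training in LCR (19 of 20) and a lower mean in trained HCR than in trained LCR (18 of 20). Their median differences were 0.54, −0.43, 0.53 and −0.40, and 0 of the 20 passed the threshold in any of these comparisons, with 4, 3, 3 and 1 at an unadjusted p under 0.05. The comparisons with sedentary HCR include HCR sedentary 2, which was highest on 17 of the 20. The mean of the 20, as the difference from its mean over all arrays, read −0.21, 1.32, −0.24 and 0.18 in sedentary HCR rats. It ranged from −0.65 to 0.03 in trained HCR and from −0.41 to 0.05 in sedentary LCR rats. HCR sedentary 1 and 3 lay inside both ranges, and HCR sedentary 4 lay just above both. The raised mean of sedentary HCR thus rested mainly on HCR sedentary 2. Lyz2, a lysozyme of macrophages, averaged 11.74 ± 0.87 (SD, n = 4) in sedentary HCR and 10.89 ± 0.42 in sedentary LCR rats, a difference of 0.85 with a limma adjusted p of 0.590. C1qa, a complement component made by macrophages, averaged 9.72 ± 0.83 in sedentary HCR and 8.87 ± 0.60 in trained HCR rats, with a limma adjusted p of 0.218. In bulk muscle, fewer cells of a type and less RNA per cell cannot be told apart.

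A class II mean was taken over Cd74, RT1-Da, RT1-Ba, RT1-Bb and RT1-Db1 (the brightest probe set of each, as the difference from its own 16-array mean) and set beside the mean of each marker list. With the macrophage mean it had Pearson's r = 0.906 and Spearman's rho = 0.844 over 16 arrays, r = 0.817 without the 2 arrays farthest from the median of the macrophage mean (HCR sedentary 2 and HCR trained 3), and r = 0.900 on deviations from group means. The arrays share a normalization, and these values are given as a description with no p. HCR sedentary 2 was highest on both means, at 1.65 for class II and 1.32 for macrophage markers, followed by LCR trained 2, at 0.94 and 0.52. The brightest RT1-Ba probe set is 1392334_at, which did not follow Cd74 and was high in trained LCR rats. With RT1-Ba left out of the class II mean, HCR sedentary 4 was second on it (1.13) and LCR trained 2 read 0.70, while r with the macrophage mean was 0.893. HCR sedentary 4 departed from the relation, with a class II mean of 0.80 beside a macrophage mean of 0.18.

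**Figure D4:**
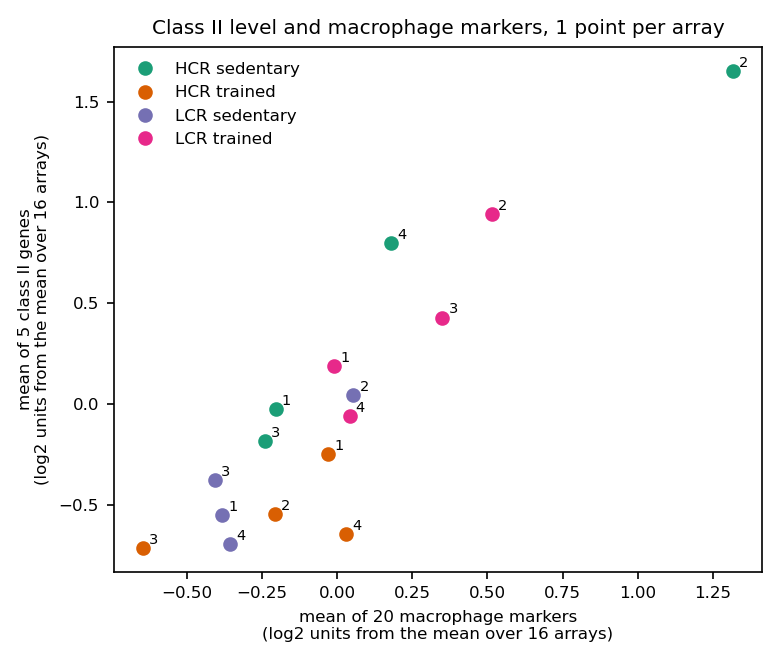
Mean of 5 class II genes against mean of 20 macrophage markers, both in log2 units from the 16-array mean, with 1 point per array and its replicate number beside it. The points rise together (r = 0.906), HCR sedentary 2 lies at the top right (1.32, 1.65), and HCR sedentary 4 lies above the others of its macrophage level (0.18, 0.80).

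With the mean of the 8 measured dendritic cell markers, 2 of which averaged below the dim level, the class II mean had r = 0.896 and rho = 0.894. Without the 2 farthest arrays r was 0.813. On deviations from group means r was 0.805, and 0.535 without HCR sedentary 2, where that with the macrophage mean was 0.785. Clec10a, a lectin of dendritic cells and macrophages, averaged 7.76 ± 0.57 (SD, n = 4) in sedentary HCR and 6.89 ± 0.47 in trained HCR rats, with a limma adjusted p of 0.128, and 0 of the 8 markers passed in any comparison (unadjusted p under 0.05 for 4 markers between sedentary lines, 4 with training in HCR, 2 between trained lines and 1 with training in LCR). The 7 B cell markers had r = −0.28 and rho = −0.34, the 10 T cell markers r = 0.27 and rho = 0.01, and the 9 endothelial markers r = 0.28 and rho = 0.43. These r were −0.46, −0.18 and 0.39 without HCR sedentary 2, so that for T cell markers changed sign. Of these, 4 B cell and 6 T cell markers averaged below the dim level. With the beta-actin index the class II mean had r = −0.76 and rho = −0.57, and r = −0.57 without HCR sedentary 2, where r on deviations from group means was −0.08. In all, 7 such relations were computed, that with the interferon gamma list below included.

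The other genes of class II peptide handling moved less than the chains. Of 13 measured, 12 had a higher mean in sedentary HCR than sedentary LCR (median 0.33) and 12 a lower mean after training in HCR (median −0.29), 8 a higher mean after training in LCR and 9 a lower mean in trained HCR than in trained LCR, and 0 passed the threshold in any of the 4 (unadjusted p under 0.05 for 4, 1, 4 and 3 genes). Ctsl, a lysosomal protease, averaged 10.85 ± 0.33 (SD, n = 4) in sedentary HCR, 10.77 ± 0.18 in trained HCR, 10.49 ± 0.14 in sedentary LCR and 11.00 ± 0.06 in trained LCR rats. Ctsb, another lysosomal protease, differed by 0.41 between sedentary lines with a limma adjusted p of 0.635. Ifi30, a thiol reductase that unfolds antigens in lysosomes, differed by −0.40 with training in HCR, with a limma adjusted p of 0.372. The chains RT1-DOa, RT1-DOb, RT1-Db2 and RT1-Ha had no probe set of a single symbol and were not analysed here.

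Among 12 measured partners and regulators of Ciita, 1 gene passed the threshold. Rfxank, a subunit of the RFX complex that binds the X box, read 7.09, 7.19, 7.25 and 7.31 in sedentary HCR and 7.55, 7.80, 7.57 and 7.52 in trained HCR rats. The HCR groups did not overlap, and Rfxank rose by 0.40 ± 0.07 (SE) with training, with a limma adjusted p of 0.0475. In that comparison 0.187% of all probe sets passed the threshold. The list was chosen with earlier results of these data known, which this p does not account for. In LCR rats Rfxank differed by −0.08 (limma adjusted p of 0.708), and the difference between the lines' training responses was 0.48, with a limma adjusted p of 0.097. Rfxank thus ran opposite in sign to the class II chains in HCR, and the call was lost under 11 of 17 alternative settings, in which the difference stayed between 0.31 and 0.43. Nfyc, a subunit of the Y box factor NF-Y, differed by 0.32 with training in HCR (limma adjusted p of 0.264). The coactivators Crebbp and Ep300 differed by 0.16 and 0.14 there, with limma adjusted p of 0.555 and 0.482.

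Interferon gamma, a cytokine of T cells and natural killer cells, is the best known inducer of Ciita. Of 14 measured genes of its signalling and response, 7 had a higher and 7 a lower mean in sedentary HCR than in sedentary LCR, the median difference was 0.00, and 0 passed the threshold in any comparison, with 1 at an unadjusted p under 0.05 between sedentary lines and 0 in the other 3 group comparisons. Ifngr1, a chain of its receptor, differed by 0.27 between sedentary lines, with a limma adjusted p of 0.564. The receptor chain Ifngr2 and the kinase Jak1 differed by 0.05 and −0.08, with limma adjusted p of 0.902 and 0.745. The list's mean had r = 0.705 and rho = 0.509 with the class II mean, and r = 0.418 without the 2 farthest arrays, so it weakened without them. On deviations from group means r was 0.810, and 0.619 without HCR sedentary 2. Of the 14 genes, 4 averaged below the dim level.

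MHC class I genes, which present peptides from inside the cell, were split in sign between the lines and with training in LCR, and were mostly lower after training in HCR. Of 22 measured, 12 had a higher mean in sedentary HCR than in sedentary LCR (median 0.04), 6 a higher mean after training in HCR (median −0.11), 13 a higher mean after training in LCR (median 0.01) and 11 a higher mean in trained HCR than in trained LCR (median −0.06), and 0 passed the threshold (unadjusted p under 0.05 for 2, 3, 1 and 3 genes). B2m, the shared light chain of class I, averaged 12.85 ± 0.21 (SD, n = 4) in sedentary HCR and 12.59 ± 0.34 in trained HCR rats, with a limma adjusted p of 0.427.

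The genes most like Cd74 in their deviations from group means over 16 arrays, among 10697 genes above the dim level, were Alox5ap (r = 0.955), Ptpn6 (0.942), Clec7a (0.935), Clec4a3 (0.934), Coro1a (0.932), Serpinb1a (0.930), Gmfg (0.929) and Slc9a9 (0.928). Coro1a is on the macrophage list. Without HCR sedentary 2, Alox5ap stood at rank 2, Ptpn6 at rank 6, Clec4a3 at rank 7 and Slc9a9 at rank 14, with r of 0.906, 0.874, 0.869 and 0.852.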

How the data were processed

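RNA of 16 soleus samples was hybridised to Affymetrix rat expression arrays with biotin label. The deposited values are log2 expression per probe set; the authors used RMA and limma, per the submitters' processing notes, and versions are not given in the sources used here. Of 31099 probe sets, 57 controls were left out, and 20826 of the remaining 31042 had a single gene symbol, 436 several and 9780 none. The number of arrays limits the precision. The 4 groups were fitted together in limma 3.58.1 (R 4.3.3), which gave differences, SE and p-values adjusted by Benjamini-Hochberg over every probe set, with a threshold of 0.05; it was tested on simulated data. Lists use the brightest probe set per gene. Named from lists were genes past the threshold in any comparison and up to 3 genes of highest level per list that bear on class II, all member probe sets, and the 8 genes most like Cd74.

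The members and lists were chosen with earlier results of these data known. Members therefore carry no p, and the permutation test planned for the class II mean was not applied, because that mean is a score over the members. Comparisons that share a group are not independent of each other. Alternatives were quantile normalization, median centring, no dim probe sets, a variance trend with robust moderation, array weights, the compared groups alone, the beta-actin index as covariate, replicate number as a block, and leaving out arrays. Promoter sequences came from RefSeq (GRCr8).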

Additional observations from a re-analysis of the deposited data

Results flagged for a closer look

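On Cd74, the array HCR trained 1 read 10.28 while the other 3 trained HCR arrays read 9.80 to 9.86, and its gap to the nearest was 0.876 of the group's range, above Dixon's critical value for a group of that size. This was 1 of 52 groups of 4 arrays examined over the member probe sets, and chance alone sets apart about 1 group in 20. HCR sedentary 2 was not set apart by that rule on any member probe set.

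For several members every trained HCR rat lay on one side of the sedentary HCR mean and every trained LCR rat on the other side of the sedentary LCR mean, or every HCR rat lay on opposite sides of the LCR mean in the sedentary and in the trained state. The training difference in HCR minus that in LCR was −1.65 for RT1-Ba 1370822_at, −1.97 for RT1-Da, −0.71 for RT1-Db1 1370382_at, −2.11 for RT1-Db1 1370383_s_at and −1.41 for RT1-DMa. The line difference in sedentary rats minus that in trained rats was 2.16 for RT1-Bb 1371033_at, 1.97 for RT1-Da, 2.11 for RT1-Db1 1370383_s_at and 1.71 for Cd74. The value for RT1-Db1 1370382_at was −0.36 when HCR sedentary 2 was left out and 0.0005 when the beta-actin index entered as a covariate. That probe set read below the dim level of 5.61 on 11 of 16 arrays. Because the members were chosen with these values known, no p is given for these differences.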

How the results depend on the processing

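Median differences over the 13 member probe sets kept their sign under every setting run in all 7 contrasts, except between trained lines with the beta-actin covariate. That covariate moved the median from 0.87 to 0.36 between sedentary lines, from −0.60 to 0.065 between trained lines, from −0.89 to −0.18 for training in HCR, from 0.47 to 0.11 for training in LCR and from −1.41 to −0.47 for the difference between training responses. Leaving out HCR sedentary 2 and HCR trained 3 moved it to 0.30 between sedentary lines and to −0.40 for training in HCR. Leaving out 1 array at a time gave 0.30 to 1.18 between sedentary lines and −1.15 to −0.29 for training in HCR, with the weakest value without HCR sedentary 2 in both. It gave −0.76 to −0.40 between trained lines and 0.34 to 0.68 for training in LCR, and without HCR sedentary 2 the medians over both states and over both lines were 0.04 and −0.10. The correlations of the class II mean stayed inside the Fisher intervals of their 16-array values under each alternative run for them. These intervals are wide, and that for T cell markers held a change of sign. On deviations from group means without HCR sedentary 2, apart from those alternatives, r lay outside for dendritic markers (0.535) and the beta-actin index (−0.08). The 2 RT1-Ba probe sets past the threshold between trained lines lost the call with the beta-actin covariate (−2.44 and −2.02) and with the replicate block (−2.39 and −1.96), at differences about as large. The cause of these shifts was not tested.

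Counts of probe sets past the threshold over the whole array moved widely. Between sedentary lines the count was 3, and 1 with quantile normalization, median centring, no dim probe sets, a variance trend or the replicate block, 8 with array weights, 5 with the compared groups alone and 10 without both named arrays. Between trained lines it was 116, and 3525 with array weights, 836 with the compared groups alone, 5 with the beta-actin covariate, 25 with the replicate block and 1315 without both arrays. For training in HCR it was 58, and 3 with quantile normalization, 255 with median centring, 29 with a variance trend, 35 without dim probe sets, 1304 with array weights, 0 with the compared groups alone, 1 with the beta-actin covariate, 2 with the replicate block and 29 without both arrays. For training in LCR it was 1, and 321 with array weights, 178 without both arrays, and 0 with quantile normalization, median centring, the compared groups alone, the beta-actin covariate or the replicate block. For the difference between training responses it was 0 in limma, with 5673 at an unadjusted p under 0.05, and 1 with quantile normalization or median centring, 233 with array weights and 22 without both arrays. Between lines over both states it was 27, and 338 with array weights, 47 with the beta-actin covariate, 17 with the replicate block and 103 without both arrays. For training over both lines it was 2, and 5 with quantile normalization, 1148 with array weights and 131 without both arrays.

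With 1 array left out, the counts ran from 1 to 2, 9 to 255, 1 to 454, 0 to 1, 0 to 185, 15 to 69 and 1 to 72, in that order. Over 24 same-numbered pairs of arrays the correlation of deviations ran from −0.48 to 0.57, with a median of 0.03 and 8 above 0.1. Pairs of unlike number were not computed beside them, so whether replicate numbers pair the samples was not tested.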

Other observations

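Genes of the class I list and RT1-DMb were looked at by array after their values had been seen, because some were as uneven between single rats as RT1-Ba. RT1-CE10, a class I gene, read 6.23 to 7.06 in the 8 HCR rats and 8.27, 9.14, 6.75 and 8.75 in sedentary LCR and 8.83, 7.35, 8.87 and 7.25 in trained LCR rats. The low sedentary LCR rat on RT1-CE10 was rat 3, which was among the high ones on RT1-Ba 1392334_at. RT1-T24-4, another class I gene, read 8.04, 7.50, 5.23 and 7.27 in sedentary HCR and 5.17, 5.63, 7.82 and 8.45 in trained HCR rats, whereas all 8 LCR rats read 7.30 to 8.56. On RT1-DMb, the partner chain of RT1-DMa, sedentary HCR rats read 7.84, 9.65, 8.63 and 9.09 and trained HCR rats 8.61, 8.79, 7.32 and 7.53. LCR sedentary 2 was the highest array on the proteasome genes Psmb8 (7.95) and Psmb9 (8.59), where the other 15 arrays stayed at or below 7.27 and 7.69.

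The genes most like RT1-Ba 1392334_at on deviations from group means were Tmem59l (r = 0.915) and LOC102555109 (r = 0.900), but on the values themselves their r was −0.28 and 0.42. No gene had an r above 0.80 on the values, where Slc38a7 was first (r = 0.80).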
